A study of Saccharomyces cerevisiae with 21 samples.

Results

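The upstream regions of 10 genes of the Bas1 regulon were examined for Spo11-DSB formation at base resolution: the purine biosynthesis genes *ADE1*, *ADE2*, *ADE4*, *ADE6*, *ADE8*, *ADE13* and *ADE17*, and the one-carbon genes *GCV1*, *GCV2* and *SHM2*. Membership of the regulon was the rule, and the list was drawn up with earlier results of these data known. For each gene, CC-seq reads of both strands were counted over the 1000 bp before the start codon, called the promoter window below, and over the coding sequence. Counts were scaled to hits per 1000000 nuclear reads outside the rDNA (HpM). The 10 windows are a subset of 5818 such windows of protein-coding genes outside chromosome III, of which 5784 held enough reads to be tested.

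Bas1 is a Myb-type transcription factor that activates purine and one-carbon genes together with its partner Pho2, and histidine genes are also among its targets. In budding yeast most Spo11-DSBs form in the nucleosome-depleted stretch upstream of genes, and Bas1 is one of a small number of transcription factors whose binding is known to stimulate break formation nearby, classically at *HIS4*. Purine synthesis consumes one-carbon units, which is why the glycine decarboxylase complex and serine hydroxymethyltransferase are controlled alongside the *ADE* genes.

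CC-seq maps the DNA ends to which Spo11 remains covalently attached. All libraries came from SK1 diploids (MATa/alpha), collected 6 h after transfer to sporulation medium and lacking *SAE2*, so that breaks were not resected. The genotypes compared were *sae2*Δ *ndt80*Δ *tel1*Δ (the triple mutant; 5 replicates), *sae2*Δ *tel1*Δ (4 replicates), *sae2*Δ *ndt80*Δ (4 replicates) and *sae2*Δ (5 replicates, numbered 1, 2, 3, 5 and 7). In addition, 1 library of *sae2*Δ *ndt80*Δ *spo11-Y135F*, whose Spo11 is catalytically inactive, served as the control. Every strain carried *his4X::LEU2*, *leu2::hisG*, *ura3*, *lys2*, *ho::LYS2* and *arg4-nsp*, and all but the control carried *nuc1::LEU2*. *NDT80* was replaced by *LEU2* and *TEL1* by a hygromycin marker, written HYG in the triple mutant and HphMX4 in *sae2*Δ *tel1*Δ. *SAE2* was replaced by KanMX4 in *sae2*Δ *tel1*Δ and by KanMX6 in the other genotypes. Ndt80 is the transcription factor needed to leave meiotic prophase, and Tel1 is the kinase that restrains break formation near an existing break. Each genotype is represented by 1 strain. Cells were grown in adenine-supplemented YPD before pre-sporulation culture in either YPA or SPS, and the labels do not say which was used for which library. Replicates are separate samples in the labels, but separate cultures are not stated for each, so p values measure the spread between these samples.

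Libraries held between 1562673 and 10868175 reads. Reads on the deleted genes fitted the labels: *NDT80* and *TEL1* were at no more than 0.022 and 0.062 times background in the Spo11-active strains lacking them, and *SAE2* was at no more than 0.093 times in all libraries but 1 of *sae2*Δ, where it held 8 reads (0.475 times). HpM is a share of the reads of a library, so absolute numbers of breaks were not measured. Background, measured over the whole length of long ORFs, ranged from 2.41 to 56.0 HpM per kb in the Spo11-active replicates and was 78.2 HpM per kb in the control. A pair of libraries stood apart at these promoters: replicate 5 of the triple mutant and replicate 4 of *sae2*Δ *ndt80*Δ, both called time course 17 here, summed to 3970 and 4915 HpM over the 10 windows, whereas all other replicates lay between 1371 and 2928 HpM. These libraries also had the lowest backgrounds, 2.41 and 6.68 HpM per kb. The series and its numbers come from a TC mark in the names of the deposited data and not from the sample labels, and TC was read as time course. No library of *sae2*Δ *tel1*Δ or *sae2*Δ belongs to the time-course series, which also includes replicates 3 and 4 of the triple mutant and replicate 3 of *sae2*Δ *ndt80*Δ. Calls at the members in comparisons that involve *ndt80*Δ are therefore given with and without time course 17. Neighbouring windows, upstream genes, the pathway list, hotspots and peaks are given with all replicates only.

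The members lie on 6 chromosomes (build R64, gene bodies from start to stop codon). *ADE1* (YAR015W) occupies I:169375-170295 on the Watson strand, *ADE13* (YLR359W) XII:844282-845730 and *GCV2* (YMR189W) XIII:637500-640604 on the same strand. On the Crick strand are *ADE2* (YOR128C) at XV:564476-566191, *ADE4* (YMR300C) at XIII:865559-867091, *ADE6* (YGR061C) at VII:611889-615965 and *ADE8* (YDR408C) at IV:1288215-1288859. *ADE17* (YMR120C) at XIII:507502-509280, *GCV1* (YDR019C) at IV:484163-485365 and *SHM2* (YLR058C) at XII:257992-259401 are also read from the Crick strand. *ADE1*, *ADE8*, *ADE13* and *GCV2* share a divergent intergenic region of 503, 546, 231 and 495 bp with *BUD14*, *SIZ1*, *YLR358C* and *MRPS17*. The other 6 follow a gene on their own strand, at gaps of 336 bp (*REX2* to *SHM2*) to 685 bp (*AFI1* to *ADE2*). Each window therefore contains intergenic DNA and part of the neighbouring gene.

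Break levels differed widely between the 10 windows. Averaged over the 4 Spo11-active genotypes, *ADE1*, which encodes SAICAR synthetase, had the highest level (512 HpM, percentile 91.9 of all windows). It was followed by *ADE8* (349 HpM), *SHM2* (291 HpM), *ADE17* (285 HpM), *ADE6* (215 HpM), *ADE4* (181 HpM) and *ADE2* (138 HpM). *ADE13*, *GCV1* and *GCV2* were the weakest (103, 97.0 and 86.9 HpM), near the middle of the distribution at percentiles 56.0, 53.9 and 49.8. In *sae2*Δ, *ADE1* at 480 to 652 HpM and *ADE8* at 408 to 582 HpM overlapped, and so did every other pair of neighbours in this order except *ADE4* (134.6 to 250 HpM) and *ADE2* (104 to 134 HpM). The number of members above the median window of the genotype was 8 in the triple mutant, 9 in *sae2*Δ *tel1*Δ, and all 10 in the other 2 Spo11-active genotypes. The 10 windows together took 0.202%, 0.190%, 0.258% and 0.253% of the reads in these genotypes, in the same order.

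**Figure D1:**
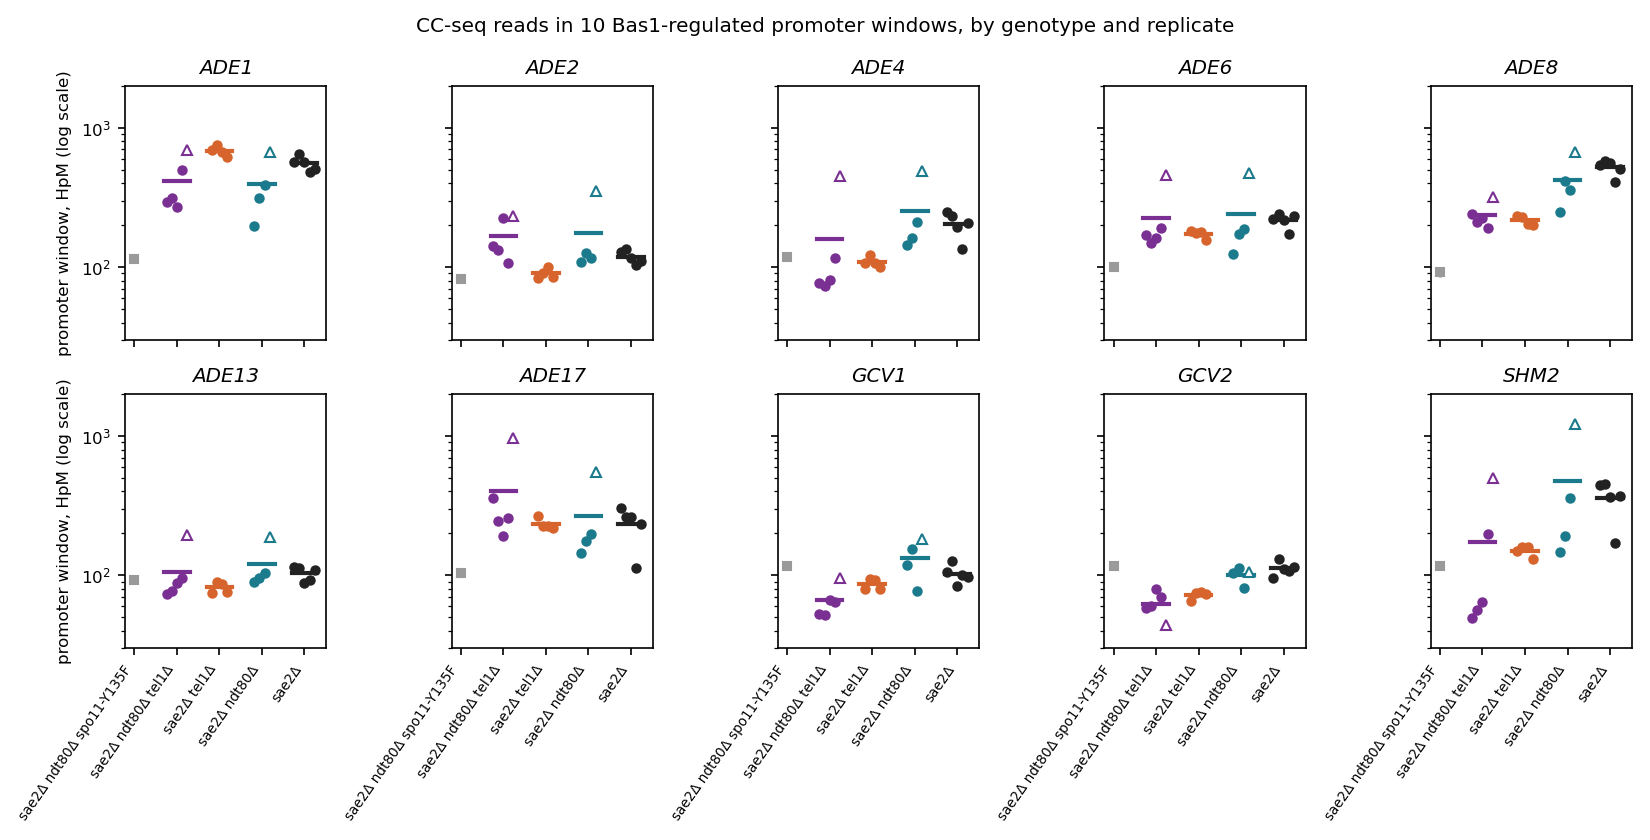
Each panel shows 1 promoter window, with HpM on a log axis and genotypes along the bottom. Filled points are replicates, open triangles are the libraries of time course 17, grey squares are the single control library and bars are genotype means. At *ADE8* all *sae2*Δ *tel1*Δ replicates (202 to 235 HpM) lie below all *sae2*Δ replicates (408 to 582 HpM), and at *SHM2* the time course 17 libraries reach 497 and 1219 HpM.

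The first comparison asked how loss of Tel1 altered these promoters while Ndt80 was present. Two-sided tests in 1 edgeR model over all windows called 2 of the 10 members lower in *sae2*Δ *tel1*Δ than in *sae2*Δ, *ADE8* and *GCV2*, and none higher. Over all 5784 windows, 18% were called lower and 4.89% higher, and so the share of members called lower was close to that of all windows. The log2 ratio was below 0 for 9 of the 10 members, with a median of -0.37 against 0.00 over all windows, 49.7% of which were below 0.

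*ADE8*, which encodes the glycinamide ribotide transformylase that uses a folate one-carbon unit, had 235, 231, 204 and 202 HpM in *sae2*Δ *tel1*Δ, against 538, 582, 563, 408 and 510 HpM in *sae2*Δ. No replicate of one genotype reached the range of the other. The means were 218 ± 17.2 HpM in *sae2*Δ *tel1*Δ (SD, n = 4) and 520 ± 68.5 HpM in *sae2*Δ (SD, n = 5), a log2 ratio of -1.25 ± 0.23 (SE, edgeR adjusted p = 0.00032). *GCV2*, which encodes the P subunit of the mitochondrial glycine decarboxylase, had 65.0, 74.6, 75.4 and 73.9 HpM in *sae2*Δ *tel1*Δ, against 96.3, 131, 110, 108 and 115 HpM in *sae2*Δ. These ranges did not overlap either, and the log2 ratio was -0.64 ± 0.16 (SE, edgeR adjusted p = 0.0056). The *ADE8* ratio stayed negative and past the threshold in all 16 alternative settings, and that of *GCV2* stayed negative in all 16 but missed the threshold when libraries were scaled to their total over windows (log2 ratio -0.37, adjusted p = 0.217).

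At 3 more members the replicates of the genotypes did not overlap, but the fit over all genotypes did not call them. How many of all windows lacked overlap was not counted, in this or any other comparison. *SHM2*, which encodes the cytosolic serine hydroxymethyltransferase, had 150, 161, 160 and 132 HpM in *sae2*Δ *tel1*Δ, against 443, 454, 368, 170 and 369 HpM in *sae2*Δ (log2 ratio -1.26 ± 0.59 SE, edgeR adjusted p = 0.136). *ADE4*, which encodes the amidotransferase of the first committed step, had 108, 122, 106 and 99.9 HpM in *sae2*Δ *tel1*Δ, against 250, 233, 195, 134.6 and 206 HpM in *sae2*Δ (-0.90 ± 0.44 SE, adjusted p = 0.151). *ADE2*, which encodes AIR carboxylase, had 83.6, 90.5, 101 and 85.0 HpM in *sae2*Δ *tel1*Δ, against 128, 134, 117, 104 and 111 HpM in *sae2*Δ (-0.40 ± 0.29 SE, adjusted p = 0.347). Neither genotype contains a time course 17 library, but the model shares its estimate of the spread with the genotypes that do. With time course 17 left out of the fit the ratios of these 3 genes were -1.26, -0.90 and -0.40, and 6 members were called lower, as were 24.1% of all windows in that fit: *ADE8*, *GCV2*, *SHM2* (adjusted p = 0.0031), *ADE4* (adjusted p = 9.4e-05), *ADE13* (adjusted p = 0.0401) and *ADE2* (adjusted p = 0.0477). That fit called 1884 windows, against 1324 with all replicates. A fit of these 2 genotypes alone called 9 members, 8 lower and *ADE1* higher, where 34.8% of all windows were called lower and 29.4% higher. *ADE1* was the single member above 0 (0.30, adjusted p = 0.475), with 695, 759, 672 and 614 HpM in *sae2*Δ *tel1*Δ and 564, 652, 572, 480 and 509 HpM in *sae2*Δ. *ADE17* was close to 0 (-0.01), with *sae2*Δ *tel1*Δ at 220 to 266 HpM and *sae2*Δ at 113 to 303 HpM.

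In the absence of Ndt80, loss of Tel1 was followed by 3 called members, all lower in the triple mutant than in *sae2*Δ *ndt80*Δ: *ADE8*, *GCV1* and *GCV2*. Over all windows 17.3% were called lower and 7.0% higher. The median log2 ratio of the members was -0.42 and that of all windows -0.28, and 8 of 10 members, and 67.9% of all windows, were below 0.

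*GCV1*, which encodes the T subunit of glycine decarboxylase, had 52.5, 52.0, 65.9, 63.8 and 96.2 HpM in the triple mutant, against 119, 154, 77.5 and 183 HpM in *sae2*Δ *ndt80*Δ. The ranges overlapped, replicate 5 of the triple mutant being higher than replicate 3 of *sae2*Δ *ndt80*Δ, and the log2 ratio was -1.02 ± 0.21 (SE, edgeR adjusted p = 0.0012). Without time course 17 it was -0.999 (adjusted p = 0.000164). *GCV2* had 58.5, 60.0, 79.9, 70.2 and 44.0 HpM in the triple mutant, against 104, 112, 80.4 and 106 HpM in *sae2*Δ *ndt80*Δ, without overlap (-0.69 ± 0.16 SE, adjusted p = 0.0032; -0.56 and adjusted p = 0.00615 without time course 17). Background, not subtracted here, was 26.3 HpM per kb in replicate 3 of the triple mutant (79.9 HpM) and 47.3 in replicate 3 of *sae2*Δ *ndt80*Δ (80.4 HpM). Its part in this separation was not tested. *ADE8* had 241, 212, 225, 192 and 321 HpM in the triple mutant, against 249, 413, 355 and 669 HpM in *sae2*Δ *ndt80*Δ (-0.83 ± 0.23 SE, adjusted p = 0.0096; -0.64 and adjusted p = 0.0107 without time course 17). The *ADE8* call was lost without replicate 4 of *sae2*Δ *ndt80*Δ alone (log2 ratio -0.51, adjusted p = 0.0625). All 3 ratios stayed negative under all 17 alternatives, but none of the 3 passed the threshold when background was subtracted or within the time-course series. *ADE8* and *GCV2* also missed it with the 2 genotypes alone (adjusted p = 0.101 and 0.0562), and *ADE8* with TMM factors (adjusted p = 0.0596).

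At *SHM2* the triple mutant had 49.7, 55.9, 64.6, 198 and 497 HpM, against 147, 190, 361 and 1219 HpM in *sae2*Δ *ndt80*Δ. The highest value in each genotype was that of time course 17, and the log2 ratio of -1.47 ± 0.57 (SE) had an edgeR adjusted p of 0.064. Without time course 17 it was -1.34 (adjusted p = 0.00622), and *SHM2* and *ADE4* were then also called lower, 5 members in all, when 16.99% of all windows were called lower. *ADE4* had 76.3, 73.5, 80.1, 116 and 454 HpM in the triple mutant and 145, 161, 210 and 490 HpM in *sae2*Δ *ndt80*Δ (-0.66 with all replicates, -0.99 without time course 17). *ADE17*, which encodes AICAR transformylase, was the member with the most positive ratio (0.60, adjusted p = 0.308), with 358, 244, 191, 260 and 975 HpM in the triple mutant and 146, 175, 197 and 552 HpM in *sae2*Δ *ndt80*Δ.

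Loss of Ndt80 in cells without Tel1 left 1 member called, *ADE2*, which was higher in the triple mutant than in *sae2*Δ *tel1*Δ. Among all windows 8.77% were called higher and 3.99% lower. *ADE2* had 143, 134, 224, 107 and 235 HpM in the triple mutant, against 83.6, 90.5, 101 and 85.0 HpM in *sae2*Δ *tel1*Δ. These ranges, without background subtraction, did not overlap. Background was 48.6 HpM per kb in replicate 4 of the triple mutant (107 HpM) and 34.4 in replicate 3 of *sae2*Δ *tel1*Δ (101 HpM). Its part in the separation was not tested. The log2 ratio was 0.90 ± 0.29 (SE, edgeR adjusted p = 0.0393). This call was lost without replicate 3 of the triple mutant (0.78, adjusted p = 0.112), without its replicate 5 (0.76, adjusted p = 0.0773) and without any 1 of the 4 *sae2*Δ *tel1*Δ replicates (adjusted p between 0.072 and 0.110). It was also lost with the replicate block (0.86, adjusted p = 0.0823), with the time-course series as a block (0.47, adjusted p = 0.175), with intergenic bases only (0.996, adjusted p = 0.056) and with Crick reads only (0.72, adjusted p = 0.0595). With both time course 17 libraries left out it held (0.76, adjusted p = 0.00173).

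The other 9 members were not called with all replicates. *ADE1* had 294, 315, 272, 501 and 692 HpM in the triple mutant, against 695, 759, 672 and 614 HpM in *sae2*Δ *tel1*Δ (-0.72 ± 0.29 SE, adjusted p = 0.0997). Replicate 5 of the triple mutant, from time course 17, lay within the range of *sae2*Δ *tel1*Δ, and the other 4 lay below it. Without time course 17 *ADE1* was called lower (-0.99, adjusted p = 0.00217), and *GCV1* was too (-0.56, adjusted p = 0.0191). That fit called 1176 of all windows in either direction, against 738 with all replicates. With all replicates the median was 0.28 over the members and -0.09 over all windows, and 3 of 10 members, and 56.7% of all windows, were below 0. The median over the members was -0.08 without time course 17, and *ADE4*, *ADE6*, *ADE8* and *SHM2* changed sign between these fits. *ADE6*, which encodes FGAM synthetase, had 169, 148, 162, 191 and 462 HpM in the triple mutant and 182, 176, 180 and 157 HpM in *sae2*Δ *tel1*Δ. *ADE13*, which encodes adenylosuccinate lyase, had 72.8, 76.5, 88.3, 95.8 and 196 HpM in the triple mutant and 75.1, 89.9, 86.8 and 76.0 HpM in *sae2*Δ *tel1*Δ. At both genes replicate 5 of the triple mutant was the highest value of either genotype, and the other replicates of the triple mutant overlapped with *sae2*Δ *tel1*Δ.

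When Tel1 was present, loss of Ndt80 left no member called, and 0.0% of all windows were called at an adjusted p under 0.05 by edgeR (728 windows at an unadjusted p under 0.05, none of them a member; 75 windows and no member called by DESeq2). All 10 members had overlapping replicates, and overlap was not counted over all windows. The median log2 ratio was 0.20 over the members and 0.13 over all windows. At *SHM2*, *sae2*Δ *ndt80*Δ had 147, 190, 361 and 1219 HpM, against 443, 454, 368, 170 and 369 HpM in *sae2*Δ (0.41 ± 0.57 SE, adjusted p = 0.682). At *ADE1*, *sae2*Δ *ndt80*Δ had 196, 314, 390 and 675 HpM, against 564, 652, 572, 480 and 509 HpM in *sae2*Δ (-0.50 ± 0.29 SE, adjusted p = 0.456). Replicate 4, of time course 17, was the highest *sae2*Δ *ndt80*Δ replicate at 9 of the 10 members, *GCV2* being the exception. Without time course 17 the ratio was below 0 for 9 of 10 members, *SHM2* at -0.63 and *ADE1* at -0.89 (adjusted p = 0.0549), with a median of -0.34 and still no member called, while 70 windows were called. Without the whole time-course series 5 members were called lower, *ADE1* (-1.12), *SHM2* (-1.10), *ADE8* (-0.65), *ADE6* (-0.56) and *ADE17* (-0.55), and *GCV1* was called higher (0.41), when 6.20% of all windows were called lower and 2.32% higher.

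**Figure D2:**
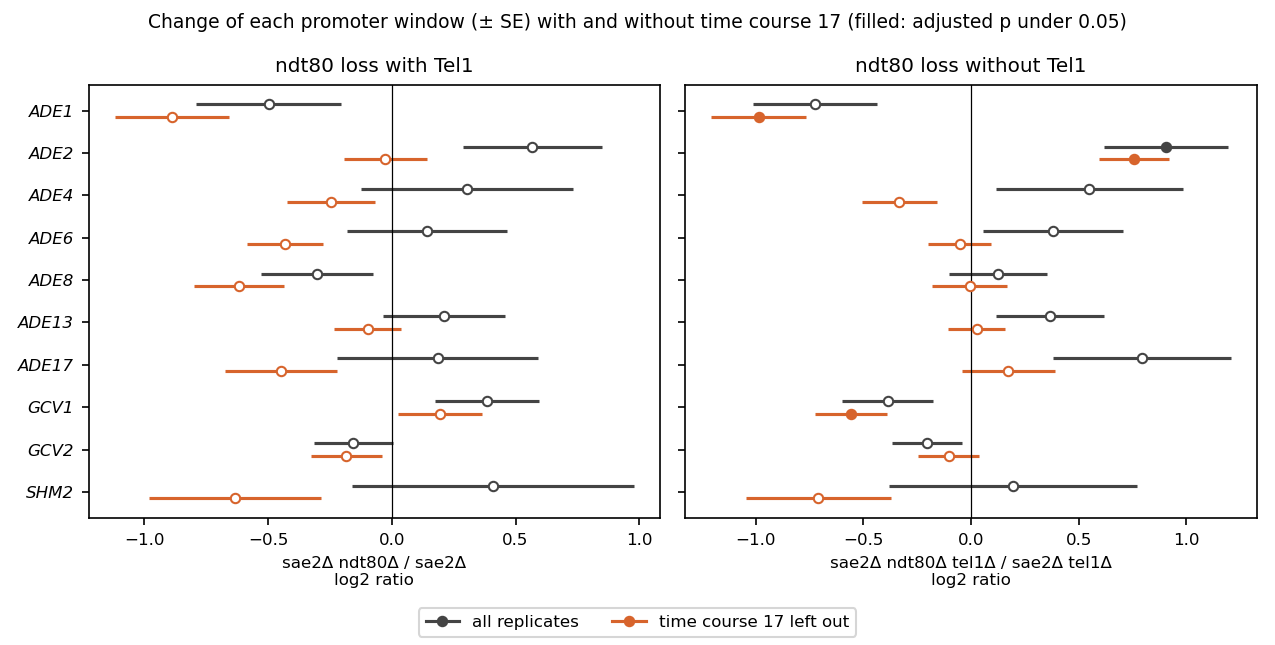
Log2 ratios with SE of the loss of *NDT80* with Tel1 and without Tel1 are drawn for all replicates and with time course 17 left out, with filled points at an adjusted p under 0.05. *ADE2* stays above 0 in the comparison without Tel1 (0.90 and 0.76), and *SHM2* lies above 0 with all replicates (0.41 and 0.20) and below 0 without time course 17 (-0.63 and -0.71).

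Whether loss of Ndt80 acted differently with and without Tel1 was tested by the interaction term. No member passed, and 0.0519% of all windows did (3 windows, all higher). The most extreme member was *GCV1* at -0.77 ± 0.30 (SE, edgeR adjusted p = 0.218), the only member with an unadjusted p under 0.05, as were 942 windows. Without time course 17, 468 windows passed, and *GCV1* (-0.75, adjusted p = 0.0492) and *ADE2* (0.78, adjusted p = 0.0386) were among them.

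The size and direction of these ratios depended on scaling over the whole set of windows. With TMM factors the median of all windows shifted by 0.20 in the loss of *TEL1* without Ndt80 and by 0.11 in the loss of *NDT80* without Tel1, and with background subtracted by 0.29 and 0.42. In the loss of *TEL1* with Ndt80 the shift was 0.26 with the total over windows as library size and -0.47 with background subtracted, and in the loss of *NDT80* with Tel1 it was 0.21 and -0.31. In the loss of *TEL1* with Ndt80, 21.4% of called windows were higher, and this share was 34.9% with TMM factors, 47.0% with the total over windows as library size, 32.4% with DESeq2, 3.82% with background subtracted and 37.9% with both background subtracted and the total over windows. Without Ndt80 the share in the loss of *TEL1* was 28.8%, and it was 54.9% with TMM factors, 55.9% with DESeq2 and 39.0% with background subtracted. For the loss of *NDT80* without Tel1 it was 68.7%, and 85.1%, 83.0% and 92.3% under the same alternatives. Members called in these comparisons kept their sign under all of them.

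The windows around each member were examined in the same fits, whether or not the member itself was called. Of 47 windows within 50 kb of *ADE8*, 28 were called lower in *sae2*Δ *tel1*Δ than in *sae2*Δ, with a median log2 ratio of -0.68. Around *ADE13* the count was 29 of 49 (median -0.62), around *SHM2* 23 of 49 (median -0.51) and around *GCV2* 12 of 46 (median -0.21), and 26.1% of the neighbours of *GCV2* lay below it. For *GCV2* this depended on the radius. Within 25 kb, 1 of 21 was called lower (median 0.02) and 4.8% lay below it, and within 100 kb 15 of 100 were (median -0.06) and 15% lay below it. Over all members and comparisons, 10 medians at these radii moved by at least the SE of the member and 90 did not. *ADE4* (-0.90), which was not called, was below all 47 of its neighbours, whose median was 0.04. When *TEL1* was lost without Ndt80, 36 of 49 neighbours of *SHM2* were called lower (median -1.02), 15 of 48 of *GCV1* (median -0.70) and 21 of 47 of *ADE8* (median -0.57). *GCV2* (-0.69) was below all 46 of its neighbours, of which 0 were called lower and whose median was 0.02. In the loss of *NDT80* without Tel1, 14 of 45 neighbours of *ADE2* were called higher (median 0.44), and 9 of 36 neighbours of *ADE1* were called lower (median -0.57).

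**Figure D3:**
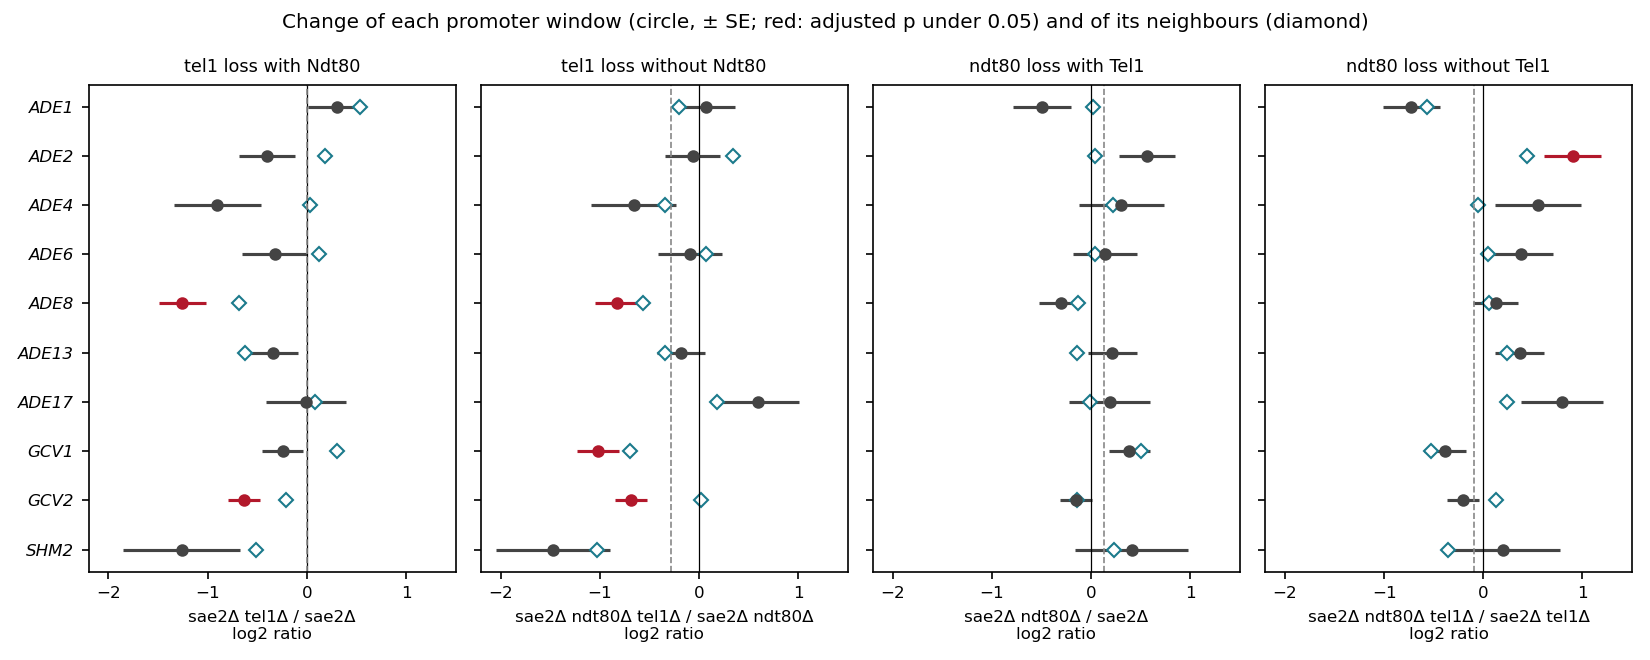
Circles are the log2 ratios of the promoter windows with their SE, with a panel per comparison, open diamonds are the medians of the windows within 50 kb, and the dashed line is the median of all windows. Red circles passed an adjusted p of 0.05: *ADE8* and *GCV2* in both losses of *TEL1*, *GCV1* in the loss of *TEL1* without Ndt80, and *ADE2* in the loss of *NDT80* without Tel1. *GCV2* at -0.69 lies far from its diamond at 0.02 in the second panel.

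Genes read away from a member over the same intergenic DNA share part of its window and so are not independent of it. The window of *SIZ1*, a SUMO ligase gene, overlapped that of *ADE8* by 546 bp and gave -1.26 in the loss of *TEL1* with Ndt80 and -0.84 without it. The window of *MRPS17*, which encodes a mitochondrial ribosomal protein, overlapped that of *GCV2* by 495 bp and gave -0.64 and -0.72. Among upstream genes whose windows did not overlap a member, *REX2*, an RNA exonuclease gene upstream of *SHM2*, was called lower in the triple mutant than in *sae2*Δ *tel1*Δ (-0.59, adjusted p = 0.025) and in both losses of *TEL1* (-0.86 with Ndt80 and -1.26 without it).

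Reads at the members were concentrated in narrow stretches of the windows. A hotspot, called with the cut-off, smoothing and merging of the study's methods on the average of each genotype, was present at 10 of 10 members in the triple mutant, *sae2*Δ *tel1*Δ, *sae2*Δ *ndt80*Δ and *sae2*Δ. The median length of the longest hotspot per member was 256.5, 198.0, 260.5 and 233.5 bp in these genotypes. Hotspots were called at the members only, in the control as well, so the share of all windows that hold one is not known. With a higher cut-off of 0.25 HpM the triple mutant kept 8 members, losing *GCV1* and *GCV2*. The *sae2*Δ *tel1*Δ genotype kept 9, losing *GCV2*, and both Spo11-active genotypes with Tel1 kept 10. The smoothed *GCV2* peak reached 0.220 HpM per bp in *sae2*Δ *tel1*Δ and 0.249 in the triple mutant. It was 0.239 in the single control library, and 0.462 and 0.560 where Tel1 and active Spo11 were present. Background is included in these heights. Smoothed peaks lay between -357 and -189 bp from the start codon. At *ADE1* the peak was at -240 bp in the triple mutant and at -242 bp in the other genotypes, at *ADE8* it was between -357 and -346 bp, and at *SHM2* it was at -278 bp in the triple mutant and between -328 and -290 bp in the other genotypes. The strongest sense-strand base of *SHM2* was at -278 in all 4 genotypes, and that of *GCV2* at -344, of *ADE2* at -194 and of *ADE1* at -234. At the other 6 members it differed between genotypes, as at *GCV1* (-104 in the triple mutant, -199 in *sae2*Δ *tel1*Δ and -247 in those with Tel1) and at *ADE4* (-241 in the triple mutant and -286 in the others). At *SHM2* in *sae2*Δ *ndt80*Δ a single base pair position held 12.9% of the reads in the window. All these positions are from genotype averages, in which the time course 17 libraries weigh most at members where they are highest, as at *SHM2* and *ADE4*. At *SHM2* the median read position was -278 bp in replicate 5 of the triple mutant and between -348 and -313 bp in its other replicates. Differences in position between genotypes may therefore rest on 1 library.

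The share of window reads within the densest 200 bp was 82.3 ± 4.88% at *ADE1* in *sae2*Δ *tel1*Δ (SD, n = 4), against 89.0 ± 1.13% in *sae2*Δ (SD, n = 5). At *GCV2* it was 57.5 ± 3.34% in *sae2*Δ *tel1*Δ, against 82.1 ± 2.26% in *sae2*Δ. At *ADE2* it was 62.5 ± 1.78% in *sae2*Δ *tel1*Δ, against 77.2 ± 3.28% in *sae2*Δ. Background per kb was 22.7 to 35.8 HpM in the *sae2*Δ *tel1*Δ libraries and 11.2 to 23.8 HpM in those of *sae2*Δ, and its part in these shares was not tested. The hotspot of *ADE1* ran over 618 bp in *sae2*Δ *tel1*Δ (-633 to -16) and over 267 bp in *sae2*Δ (-378 to -112). At a higher cut-off these lengths were 321 bp in *sae2*Δ *tel1*Δ and 251 bp in *sae2*Δ, and at a lower one they were 782 bp in *sae2*Δ *tel1*Δ and 528 bp in *sae2*Δ. At *ADE17* the profile varied between replicates, and the 200 bp farthest from its start codon held 34.8, 26.0, 15.1, 5.66 and 0.87% of the window in replicates 1 to 5 of the triple mutant. A second hotspot there, from -1572 to -875, entered the window from the side of *RPL15B*. Without the far 500 bp, no member gained or lost a call in any of the 4 comparisons.

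**Figure D4:**
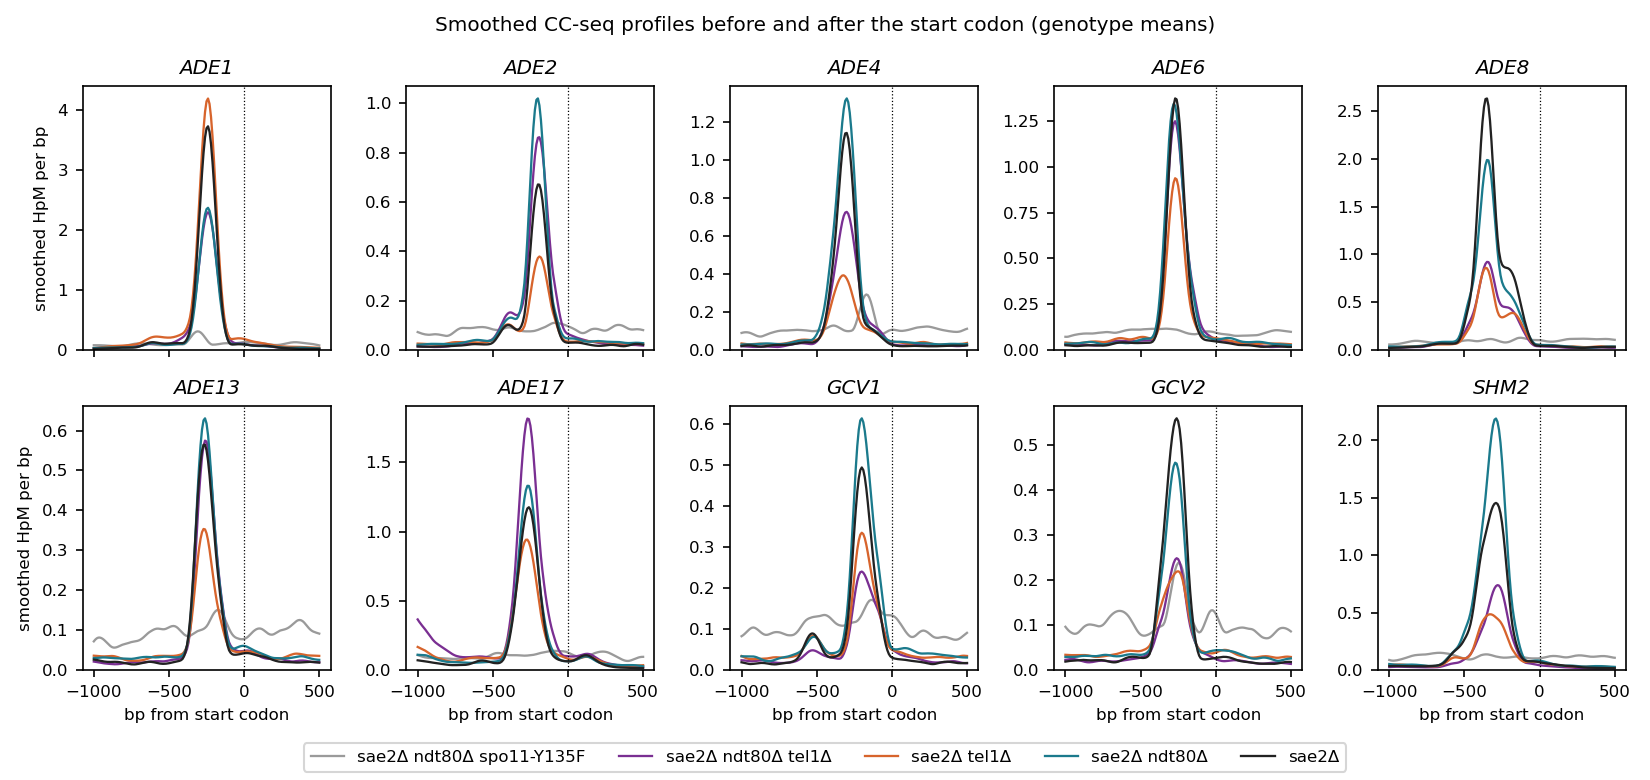
Smoothed CC-seq signal in HpM per bp is plotted against distance from the start codon for each member, from 1000 bp upstream to 500 bp inside the gene, with 1 line per genotype. The smoothed peak of *ADE1* lies at -240 or -242 bp in the Spo11-active genotypes, and that of *SHM2* between -328 and -278 bp.

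Within coding sequences the mean signal was between 0.82 and 2.01 times the background of the genotype, the highest at *ADE1* in *sae2*Δ *tel1*Δ. Reads were split unevenly between the strands at some members. At *ADE13* 63.2 to 93.0% of window reads were on the sense strand (median 72.8% over 18 replicates), at *SHM2* 63.3 to 83.8% (median 71.8%) and at *ADE17* 54.2 to 78.1% (median 61.0%). At *ADE1* the median was 43.7%, and at the other members it lay between 47.0% (*ADE8*) and 58.3% (*ADE6*). The sense and antisense profiles matched best at an offset of 1 base for every member in every Spo11-active genotype.

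The *sae2*Δ *ndt80*Δ *spo11-Y135F* control held 82.5 (*ADE2*) to 118 (*ADE4*) HpM in the windows, 1.06 to 1.51 times its background. Its level was above the *sae2*Δ *ndt80*Δ mean at *GCV2* (117 HpM, 95% exact Poisson interval for counting error 110 to 124, against 101 HpM). With background subtracted the order was the opposite, 38.6 HpM in the control and 69.7 HpM in *sae2*Δ *ndt80*Δ. At *ADE8* it was 91.7 HpM (85.4 to 98.3), against 422 HpM in *sae2*Δ *ndt80*Δ. There is 1 such library, so these differences have no replicate check. With the cut-off used for the other genotypes, hotspots were found at 3 members in the control, *ADE1*, *ADE4* and *GCV2*. The paper, in contrast, reports none anywhere in its control library at this cut-off. With the lower cut-off that the study's methods set for this control, 8 members had one, all but *ADE2* and *ADE6*. With a higher cut-off of 0.25 HpM, 2 members still had one in the control, *ADE1* and *ADE4*. The paper scales HpM to mapped reads, whereas here it was scaled to 8613208 of the 10868175 reads of the control. The same reads therefore give a higher HpM here, and these control counts are not on the study's scale. Whether this accounts for the difference was not tested.

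Another 13 genes of the purine, one-carbon and histidine pathways and their regulators were examined as a list. In the loss of *TEL1* with Ndt80, 4 of 13 were called lower and none higher, beside 18% lower and 4.89% higher over all windows: *ADE5,7* (GAR and AIR synthetase; 82.2 ± 5.75 against 175 ± 24.6 HpM, log2 ratio -1.09), *ADE12* (adenylosuccinate synthetase; -1.01), *PHO2* (-0.997) and *BAS1* itself (-0.64). In the loss of *TEL1* without Ndt80, *ADE5,7* was lower (-0.84) and *HIS1*, the first enzyme gene of histidine synthesis, was higher (139 ± 47.9 HpM in the triple mutant against 71.3 ± 16.0 HpM in *sae2*Δ *ndt80*Δ, 0.96). When *NDT80* was lost without Tel1, 4 of 13 were higher, *ADE12* (1.17), *HIS7* (1.16), *PHO2* (0.81) and *BAS1* (0.75), and none was lower, beside 8.77% higher and 3.99% lower over all windows. No gene of the list was called in the loss of *NDT80* with Tel1 or in the interaction. The highest levels belonged to *ADE3*, the cytosolic one-carbon tetrahydrofolate synthase gene (883 HpM over the 4 genotypes), *ADE12* (544 HpM) and *PHO2* (361 HpM), and the log2 ratios of *ADE3* lay between -0.14 and 0.10 in the 4 comparisons.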

How the data were processed

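CC-seq was analysed in 21 libraries of 5 genotypes. The authors deposited unnormalised whole-number counts, the number of Read 1 5′ ends at each base of either strand, and the submitters' processing notes name Bowtie2 and build R64 without a Bowtie2 version. Gene positions came from a RefSeq table of R64, and chromosome III was left out because inserts shift its positions. Windows that overlapped the deleted or replaced genes, the rDNA or a chromosome end were also left out. Libraries of 1 replicate number were summed, which left 18 replicates and the control. Depth per library was 1562673 to 10868175 reads, and intervals cover counting error only. The members and lists were chosen with earlier results of these data known. All members were named, and of the pathway list those past the threshold and the 3 highest.

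Counts per window were fitted with edgeR 4.0.16 (glmQLFit, glmQLFTest, filterByExpr) in R 4.3.3, 18 replicates in 1 model, nuclear reads outside the rDNA as library size, p values adjusted by Benjamini-Hochberg over 5784 windows, threshold 0.05. DESeq2 1.42.0 was an alternative, and the other alternatives are given below. Other steps used Python 3.11.15. Hotspots needed at least 25 bp and 25 reads, gaps under 200 bp being merged. On simulated data with 200 windows changed by a log2 ratio of 1, the 4 comparisons called 117, 129, 125 and 128 of them and 10, 9, 5 and 6 others. Between *sae2*Δ *ndt80*Δ replicates and same-numbered *sae2*Δ replicates deviations from the group means correlated across windows (r = 0.37, 0.61 and 0.67 for numbers 1 to 3). By this rule the numbers were used as a block, in 1 fit of all 18 replicates and so in the other genotypes too. Between these genotypes no window was called with or without the block. Elsewhere the block removed the call of *ADE2* in the loss of *NDT80* without Tel1 (edgeR adjusted p = 0.0823). It added *SHM2* in the loss of *TEL1* without Ndt80 (-1.87, adjusted p = 0.0239). In the other comparisons the numbers did not meet this rule. Some differently numbered *sae2*Δ and *sae2*Δ *ndt80*Δ replicates also correlated, 2 with 4 at r = 0.78, 3 with 1 at 0.62 and 1 with 3 at 0.55. Others were negative, 2 with 1 at -0.85. The numbers therefore do not establish pairs. Triple mutant and *sae2*Δ *ndt80*Δ libraries of the same time course had r = 0.87 (10) and 0.88 (17) and were not fitted as pairs.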

Additional observations from a re-analysis of the deposited data

Results flagged for a closer look

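In 9 of 40 groups of replicates, 1 member in 1 genotype each, the highest or lowest replicate lay far from the others. For independent groups chance flags about 1 in 20. These groups are not independent, because all members were measured in the same replicates, so their number cannot be set against that rate. Replicate 5 of the triple mutant (time course 17) was far above the others at *ADE4* (454 HpM, others 73.5 to 116), *ADE6* (462 HpM, others 148 to 191), *ADE13* (196 HpM, others 72.8 to 95.8) and *ADE17* (975 HpM, others 191 to 358). Replicate 4 of *sae2*Δ *ndt80*Δ (time course 17) was far above the others at *ADE2* (354 HpM, others 108 to 127), *ADE13* (189 HpM, others 89.9 to 104) and *ADE17* (552 HpM, others 146 to 197). Replicate 1 of *sae2*Δ *tel1*Δ was above the others at *ADE17* (266 HpM, others 220 to 225) and below them at *GCV2* (65.0 HpM, others 73.9 to 75.4). Calls at the members without time course 17 are given beside each comparison above, and what made these libraries differ was not tested.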

How the results depend on the processing

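Counts of windows called, with members in brackets, depended on the setting, and of the 6 calls at members only that of *ADE8* in *tel1*Δ with Ndt80 held in every alternative tried. In *ndt80*Δ with Tel1 (0, 0) the counts were 6 with the total over windows as library size, 75 with DESeq2, 5 with the time-course series as a block, 2 with Watson reads only, 70 without time course 17 and 493 (6) without the time-course series. In *ndt80*Δ without Tel1 (738, 1) they were 1283 with DESeq2, 455 (0) with the replicate block, 1569 (2) with the series as a block, 3686 (5) without the series, 440 with background subtracted, 1427 (2) with that and the total over windows, 1119 with every library as a replicate and 1176 (3) without time course 17, while members were 2 with the total over windows, 2 with Watson reads and 0 with intergenic bases. In *tel1*Δ with Ndt80 (1324, 2) they were 3709 (9) with the 2 genotypes alone, 2854 (8) without the series and 2028 with background subtracted and the total over windows, while members were 1 with the total over windows, 4 with the series as a block and 6 without time course 17. In *tel1*Δ without Ndt80 (1404, 3) they were 500 (1) with the 2 genotypes alone, 2111 (5) with the series as a block, 3551 (6) without it, 521 (0) with background subtracted and 168 (0) within it, and members were 5 without time course 17. In the interaction (3, 0) they were 11 with TMM factors, 102 (1) with the total over windows, 439 with DESeq2, 11 without a filter, 0 with the replicate block, 381 with the series as a block, 3294 (4) without it, 1 with background subtracted, 158 with that and the total over windows, 50 with Watson reads, 10 with Crick reads, 152 with every library as a replicate and 468 (2) without time course 17. Leaving out 1 replicate gave 0 to 192 windows in *ndt80*Δ with Tel1, 370 to 1904 (0 to 2 members) in *ndt80*Δ without Tel1, 998 to 1566 (2 to 4) in *tel1*Δ with Ndt80, 1016 to 2439 (3 to 6) in *tel1*Δ without Ndt80 and 1 to 1183 (0 to 1) in the interaction. At the lower hotspot cut-off that the methods set for the control, 8 members had a control hotspot in place of 3. With the replicate block, the fit paired by replicate number, 1120 windows were called in *tel1*Δ with Ndt80, 1337 in *tel1*Δ without Ndt80 and 0 in *ndt80*Δ with Tel1. In the last comparison same-numbered samples deviated together, and so did some with different numbers. Calls were gained without replicate 5 of the triple mutant for *ADE4* (-0.90 with and -1.54 without Ndt80) and *SHM2* (-1.26 and -2.38) in *tel1*Δ, *ADE13* in *tel1*Δ without Ndt80 (-0.52) and *ADE1* in *ndt80*Δ without Tel1 (-0.99), the last also without its replicate 4 (-0.80). Without replicate 4 of *sae2*Δ *ndt80*Δ, *ADE17* in *tel1*Δ without Ndt80 (1.23), *ADE1* in *ndt80*Δ without Tel1 (-0.72) and *ADE2* in the interaction (0.93) were gained, and *SHM2* in *tel1*Δ without Ndt80 was gained without replicate 1 (-1.77) or 2 (-1.74). The search for the Bas1 motif TGACTC was not run, as it needs a genome. Settings without time course 17, within the series, and with background subtracted plus the total over windows were chosen after the data were seen. The cause of these differences was not tested.

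With 500 bp windows the sign changed in the interaction for *GCV2* (0.18). With Crick reads only the sign changed in the interaction for *GCV2* (0.0079), in *tel1*Δ with Ndt80 for *ADE13* (0.072) and in *tel1*Δ without Ndt80 for *ADE13* (0.12). With DESeq2 the sign changed in the interaction for *GCV2* (0.12), in *tel1*Δ with Ndt80 for *ADE17* (0.042) and in *tel1*Δ without Ndt80 for *ADE13* (0.031), *ADE2* (0.17), *ADE6* (0.14). With TMM factors the sign changed in the interaction for *GCV2* (0.072), in *tel1*Δ with Ndt80 for *ADE17* (0.074) and in *tel1*Δ without Ndt80 for *ADE13* (0.030), *ADE2* (0.17), *ADE6* (0.14). With Watson reads only the sign changed in *ndt80*Δ with Tel1 for *ADE6* (-0.23), in *tel1*Δ with Ndt80 for *ADE17* (0.076) and in *tel1*Δ without Ndt80 for *ADE1* (-0.016), *ADE6* (0.39). With background subtracted the sign changed in the interaction for *GCV2* (0.46), in *ndt80*Δ without Tel1 for *GCV2* (0.044) and in *tel1*Δ without Ndt80 for *ADE2* (0.033). With background subtracted and the total over windows the sign changed in the interaction for *ADE4* (-0.0024), in *ndt80*Δ without Tel1 for *ADE8* (-0.021), in *tel1*Δ with Ndt80 for *ADE17* (0.29) and in *tel1*Δ without Ndt80 for *ADE2* (0.013). With every library as a replicate the sign changed in *tel1*Δ with Ndt80 for *ADE17* (0.033). With intergenic bases only the sign changed in the interaction for *GCV2* (0.19), *SHM2* (0.042) and in *tel1*Δ without Ndt80 for *ADE13* (0.038). With the replicate block the sign changed in the interaction for *ADE13* (-0.086), *ADE4* (-0.30), *GCV2* (0.093), in *ndt80*Δ with Tel1 for *SHM2* (-0.20) and in *ndt80*Δ without Tel1 for *ADE4* (-0.090), *SHM2* (-0.73). With time course 17 left out the sign changed in the interaction for *ADE4* (-0.088), *GCV2* (0.080), in *ndt80*Δ with Tel1 for *ADE13* (-0.097), *ADE17* (-0.45), *ADE2* (-0.026), *ADE4* (-0.24), *ADE6* (-0.43), *SHM2* (-0.63), in *ndt80*Δ without Tel1 for *ADE4* (-0.33), *ADE6* (-0.052), *ADE8* (-0.0055), *SHM2* (-0.71) and in *tel1*Δ without Ndt80 for *ADE2* (0.38), *ADE6* (0.054). With the time-course series as a block the sign changed in *ndt80*Δ with Tel1 for *ADE13* (-0.18), *ADE17* (-0.39), *ADE4* (-0.50), *ADE6* (-0.44), *SHM2* (-1.11) and in *ndt80*Δ without Tel1 for *ADE13* (-0.10), *ADE4* (-0.44), *ADE6* (-0.23), *ADE8* (-0.082), *SHM2* (-1.50). With the total over windows as library size the sign changed in the interaction for *ADE13* (-0.15), *ADE4* (-0.067), *ADE6* (-0.021), in *ndt80*Δ with Tel1 for *GCV2* (0.060), in *ndt80*Δ without Tel1 for *ADE8* (-0.0079) and in *tel1*Δ with Ndt80 for *ADE17* (0.24), *GCV1* (0.017). With the time-course series alone the sign changed in *tel1*Δ without Ndt80 for *ADE1* (-0.12). With the time-course series left out the sign changed in the interaction for *ADE4* (-0.13), in *ndt80*Δ with Tel1 for *ADE13* (-0.15), *ADE17* (-0.55), *ADE2* (-0.020), *ADE4* (-0.41), *ADE6* (-0.56), *SHM2* (-1.10), in *ndt80*Δ without Tel1 for *ADE13* (-0.13), *ADE4* (-0.54), *ADE6* (-0.13), *SHM2* (-1.51) and in *tel1*Δ without Ndt80 for *ADE2* (0.24), *ADE6* (0.10).

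Leaving out 1 replicate at a time changed the sign of some ratios at least once. Their ranges were in *ndt80*Δ with Tel1 *ADE2* (-0.025 to 0.74), *ADE4* (-0.24 to 0.50), *ADE6* (-0.43 to 0.36), *ADE13* (-0.097 to 0.33), *ADE17* (-0.45 to 0.39), *SHM2* (-0.63 to 0.71). The ranges were in *ndt80*Δ without Tel1 *ADE4* (-0.33 to 0.73), *ADE6* (-0.052 to 0.50), *ADE8* (-0.0054 to 0.19), *SHM2* (-0.71 to 0.43). The ranges were in *tel1*Δ with Ndt80 *ADE17* (-0.19 to 0.099). The ranges were in *tel1*Δ without Ndt80 *ADE1* (-0.19 to 0.47), *ADE2* (-0.24 to 0.53), *ADE6* (-0.52 to 0.49), *ADE13* (-0.52 to 0.13), *ADE17* (-0.022 to 1.23). The ranges were in the interaction *ADE1* (-0.49 to 0.16), *ADE4* (-0.64 to 0.79), *ADE6* (-0.19 to 0.81), *ADE13* (-0.19 to 0.46), *ADE17* (-0.013 to 1.24), *GCV2* (-0.15 to 0.052), *SHM2* (-1.12 to 0.83).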

Other observations

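The 3 members with a hotspot in the *spo11-Y135F* control were looked at base by base. Its strongest sense and antisense bases lay 3 positions apart at *ADE1* (-309 and -306), *ADE4* (-167 and -164) and *GCV2* (-253 and -250), whereas the profiles of the 4 Spo11-active genotypes matched best at an offset of 1 base at these genes. At *ADE1* the base at -309 held 17.6 HpM, 15.5% of the window. There is 1 control library, so these values have no replicate check. A second hotspot of *ADE8* began within the last bases of the coding sequence and ran past the stop codon, at 636 to 809 bp from the start codon in *sae2*Δ *ndt80*Δ and at 643 to 786 bp in *sae2*Δ.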
